A study of Drosophila melanogaster with 2 samples.

Results

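The peaks of the CG8281 fusion protein on the X chromosome were 728 of the 3921 peaks in the optimal list, and they were taken as every row of that list on X, with the summit, the position of highest signal, as the place of a peak. The authors derived the optimal list by the irreproducible discovery rate, a measure of how alike peaks rank in replicates. On X it held the strongest peaks of the list called on both replicates together, the pooled list. The peaks came from chromatin immunoprecipitation and sequencing (ChIP-seq) of whole Drosophila melanogaster embryos aged 0 to 20 hours, sonicated to 200 to 800 bp and precipitated with an antibody against GFP. Both samples were biological replicates of the same transgenic line, which stably expressed CG8281 with GFP fused to its C-terminus, and no second genotype, treatment or age was compared. The embryos were a mixture of all cell types and of ages across that span, and their sex was not collected. No test over samples was possible with 1 group of 2 samples, so X is set beside each of the large autosomal arms 2L, 2R, 3L and 3R as a description, and no difference between arms was tested. Ranges of percent in parentheses are exact Clopper-Pearson 95% intervals, which cover counting error only, while ranges after the word beside span these arms. Read depth is unknown, and the copy number of X in the embryos and the ease of mapping reads to it were not tested.

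In Drosophila, males carry a single X and females a pair, and the dosage compensation complex with its roX RNAs raises transcription of genes on the male X. Introns and the DNA between genes hold many of the enhancers of neural and patterning genes. A ChIP-seq peak marks a stretch of DNA that was recovered with the tagged protein, directly or through other proteins.

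Many of the strongest X peaks lay on short tandem repeats inside introns. The windows below reach 50 bp to either side of the summit on the plus strand of the Release 6 reference genome (dm6), and capitals mark every stretch of 12 or more bases made of 1 repeated 4-base unit. They are shown because such repeats lay within 100 bp of 9 of the 14 X summits among the 100 strongest peaks of the list. The windows of Hk and OdsH hold no such stretch. Imperfect repeats and repeats of longer units are not marked, and both of these windows hold near-copies of a longer unit in tandem. Each is named by the gene of the nearest transcription start site (TSS).
Sp1, chrX:9744983-9745083: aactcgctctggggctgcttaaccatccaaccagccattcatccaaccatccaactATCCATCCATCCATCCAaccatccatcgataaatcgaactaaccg
Hk, chrX:10250125-10250225: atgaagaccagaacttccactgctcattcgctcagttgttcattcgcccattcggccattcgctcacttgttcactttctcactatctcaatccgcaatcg
CG1572, chrX:11527199-11527299: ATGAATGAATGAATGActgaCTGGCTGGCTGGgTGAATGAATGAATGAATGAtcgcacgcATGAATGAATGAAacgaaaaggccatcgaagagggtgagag
CG8034, chrX:19287934-19288034: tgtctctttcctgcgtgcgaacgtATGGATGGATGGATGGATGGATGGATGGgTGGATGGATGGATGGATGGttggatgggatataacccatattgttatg
lz, chrX:9291420-9291520: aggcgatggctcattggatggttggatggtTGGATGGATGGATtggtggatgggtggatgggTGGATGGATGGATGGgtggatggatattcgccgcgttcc
CG43658, chrX:17494078-17494178: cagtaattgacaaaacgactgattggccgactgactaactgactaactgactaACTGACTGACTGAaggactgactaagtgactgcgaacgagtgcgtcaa
OdsH, chrX:17780984-17781084: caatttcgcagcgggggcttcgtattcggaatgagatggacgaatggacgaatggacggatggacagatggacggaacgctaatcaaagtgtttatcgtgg
drd, chrX:15128030-15128130: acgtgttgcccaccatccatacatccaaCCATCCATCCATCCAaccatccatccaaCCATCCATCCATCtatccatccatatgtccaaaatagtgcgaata
CG14269, chrX:3404848-3404948: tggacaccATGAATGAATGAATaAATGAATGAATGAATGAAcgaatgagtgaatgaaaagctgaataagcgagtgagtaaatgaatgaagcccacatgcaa
Of these 9 windows 8 lay in introns and that of OdsH was intergenic, and none touched an annotated exon. The Sp1, CG8034, lz and drd windows share the unit ATCC, read on either strand, while CG1572 and CG14269 share AATG.

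A separate 8-base word, GCACAGTG, was found near other X summits. It was picked after the sequences were seen, as the word with the largest gain over the flanks on X among those with a GC content of at least 50% whose first base does not recur 4 bases on. The windows below, all outside annotated exons, give the word in capitals with 11 bases to either side, on the strand that reads GCACAGTG.
bves, chrX:21054409-21054438, minus strand: aatttcgtggtGCACAGTGgtcgcaattgc
CG11151, chrX:13739609-13739638, minus strand: agccagctgatGCACAGTGggcatgaactc
schlank, chrX:6265568-6265597, minus strand: ctgctgcatttGCACAGTGcgagataacta
prage, chrX:1830831-1830860, minus strand: cggtcgcgatcGCACAGTGggtgtaaaaat
pigs, chrX:6601922-6601951, plus strand: cagaaatcaatGCACAGTGtggtagccacg
CHES-1-like, chrX:7700455-7700484, minus strand: cactgtttggcGCACAGTGggcactcgctt
Of these 6 windows 4 lie at promoters, and those of schlank and CHES-1-like lie in introns.

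The signal is the authors' value for each peak, of unstated scaling, and is compared only within a list. On X it ran from 122.7 to 14960.7, with a median of 223.6 (quartiles 158.1 and 366.6), beside medians of 208.8 to 220.5 on the autosomal arms. The 90th percentile on X was 629.1, below the 684.4 to 804.7 of the autosomal arms, while its upper quartile and maximum lay inside their spans of 358.7 to 437.0 and 9603.3 to 56064.5. X peaks were also narrower, with a median width of 310.0 bp, beside 351.0 to 404.0 bp. The weakest X peaks of the list had signals of 122.8, 122.7 and 122.7 at ranks 3913, 3918 and 3920, and the next X peaks of the pooled list, just outside it, had 122.5 at ranks 3930, 3932 and 3933.

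The X held 18.6% of all optimal summits (17.4 to 19.8%), or 30.9 per Mb, beside 31.3, 28.2, 29.7 and 28.1 per Mb on 2L, 2R, 3L and 3R. X makes up 17.1% of the sequence of the 7 arms. Its share was not even along the ranking. Among the 100 strongest peaks of the pooled list 14% lay on X (7.87 to 22.4%), and among ranks 101 to 500 15.8% (12.3 to 19.7%). Ranks 501 to 1000 held 20.8% (17.3 to 24.6%) and ranks 1001 to 2000 20.4% (17.9 to 23.0%). The share was then 17.9% for ranks 2001 to 3921, 16.2% for ranks 3922 to 7842 and 15% (14.4 to 15.6%) for ranks 15001 to 30000. In the pooled list X was thus above its length share in the middle ranks and below it in the weak ones. The lower limit of ranks 501 to 1000, 17.3%, is close to that share, which counts Y. In replicate 2 the intervals of the middle ranks, 16.4 to 23.6% and 16 to 20.9%, include the length share, and in replicate 1 ranks 3922 to 7842 held 18.2%, above it. In the pooled list the interval of the 100 strongest includes the length share.

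**Figure D1:**
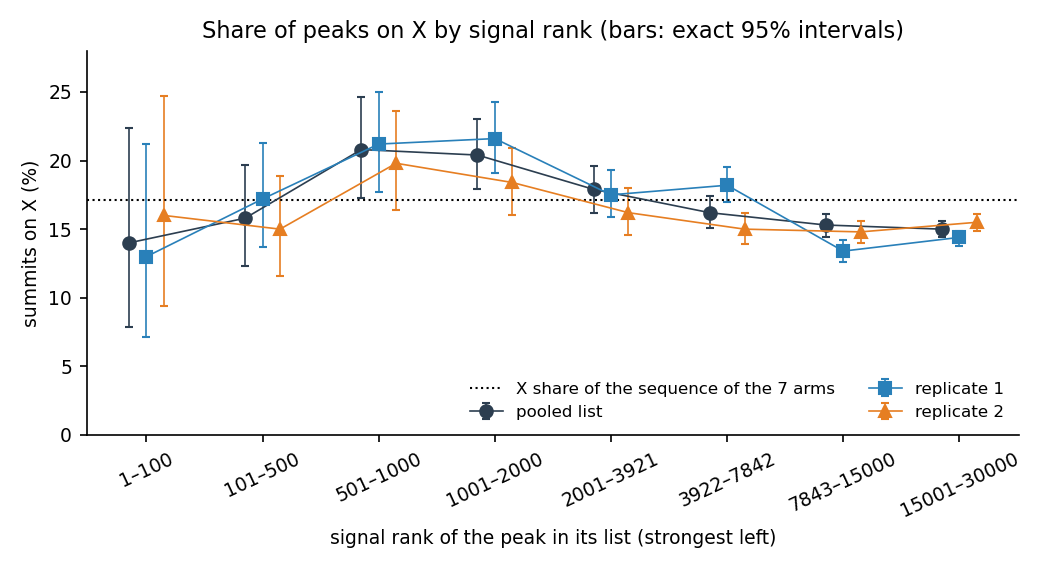
Share of summits on X (percent, vertical axis) by signal rank (horizontal axis, strongest left) in the pooled list and in each replicate's own list, with exact 95% intervals and a dotted line at the X share of sequence, 17.1%. That sequence includes Y. In the pooled list and in both replicates the highest share lies between ranks 501 and 2000, at 20.8% in the pooled list, 21.6% in replicate 1 and 19.8% in replicate 2.

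The replicates differed in how strongly they ranked X. Among its own 3921 strongest peaks replicate 1 held 741 on X, 18.9%, and replicate 2 held 671, 17.1%, so that X had 31.5 peaks per Mb in replicate 1 and 28.5 in replicate 2, beside 29.1 and 29.7 on the 4 large autosomal arms together. Of the 704 optimal X peaks found in both full lists, 383 had the stronger rank in replicate 1, 54.4% (50.6 to 58.1%), beside 42.8, 47.8, 44.3 and 45.9% on 2L, 2R, 3L and 3R. The same order held within promoter peaks, those with a summit within 500 bp of a TSS of a protein-coding gene. There 151 of 208 X peaks, 72.6% (66.0 to 78.5%), ranked stronger in replicate 1, beside 58.1 to 61.7% on the autosomal arms. Among the other, distal, peaks it was 232 of 496, 46.8% (42.3 to 51.3%), beside 34.3 to 40.6%. Each peak took the rank of the strongest replicate peak it overlapped. Some neighbouring peaks share the same replicate peak, which is then counted more than once. Whether the share of male and female embryos differed between the replicates cannot be seen from the files.

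X peaks were found in both replicates slightly more often than those of each large autosomal arm. Of the 728, 524 overlapped a peak among the 3921 strongest of each replicate, 72% (68.6 to 75.2%), beside 65.7 to 68.9% on the autosomal arms. With replicate peaks of any strength it was 704, or 96.7%, beside 93.6 to 95.5%. A further 19 X peaks were found in replicate 1 only and 5 in replicate 2 only. The optimal list was itself made from these lists, so these shares are no independent measure of agreement. Across the 704 X peaks the ranks in the replicates had a Spearman rho of 0.67, beside 0.59 to 0.68 on the autosomal arms. It is given as a description of peaks that share libraries and, in some cases, the same replicate peak.

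**Figure D2:**
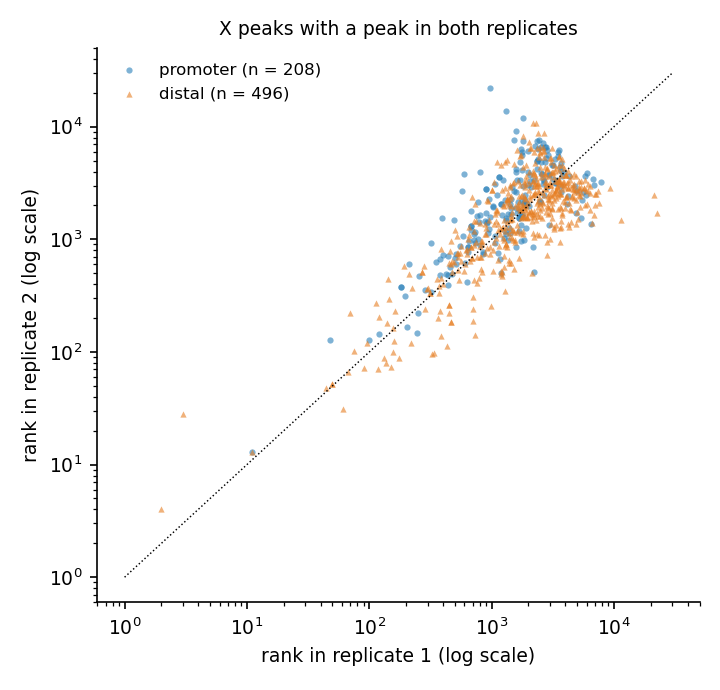
Rank in replicate 1 (horizontal) against rank in replicate 2 (vertical), both on log scales, for the 704 X peaks with a peak in both replicates, 208 at promoters and 496 distal; the dotted line marks equal ranks. Points above the line rank stronger in replicate 1, which holds for 151 of the promoter peaks and 232 of the distal ones.

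X summits lay in introns more often and at promoters less often than summits of each large autosomal arm. Introns, here any part of a gene, non-coding genes included, that is neither promoter nor exon, held 388 of 728 X summits, 53.3% (49.6 to 57.0%), beside 40.2, 43.4, 39.8 and 45.6% on 2L, 2R, 3L and 3R. They make up 43.8% of the X sequence and 37.0 to 43.6% of that of the autosomal arms. Promoters held 225 X summits, 30.9% (27.6 to 34.4%), beside 36.7, 36.8, 36.4 and 35.3%. The promoter interval of X overlaps those of all 4 arms, while its intron interval lies above them. Close to the start site the ratio between arms was larger. Only 48 X summits, 6.59% (4.90 to 8.65%), lay within 100 bp of a TSS, beside 12.4, 12.2, 11.6 and 10.6%, and the promoter summits of X had a median position of -160 bp, beside -123 to -138 bp. Intergenic sequence held 80 X summits, 11%, beside 13.6 to 20.0%, and makes up 23.0% of X, beside 24.5 to 32.7%. The 3′ UTRs held 17, 2.34%, beside 0.543 to 1.89%, and make up 6.01% of X, beside 3.90 to 4.48%. Coding sequence held 2, 0.275%, beside 0 to 0.280%, though it is 14.1% of X.

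The orders of introns, promoters and the 100 bp window stood in each replicate alone, where the other classes were not counted, and the first and last of these were alternatives chosen after seeing the data. In the strongest peaks of replicate 1, 50.3% of X summits were intronic, beside 35.9 to 41.8% on the autosomal arms, and 8.50% lay within 100 bp of a TSS, beside 14.1 to 16.2%. In those of replicate 2 the intronic share was 58.1% on X, beside 42.5 to 48.2%, and the share within 100 bp was 5.22%, beside 9.02 to 11.8%. The promoter share of X was 34.4% in replicate 1, beside 40.9 to 42.6%, and 26.1% in replicate 2, beside 31.1 to 32.4%. Promoter peaks were thus more frequent in replicate 1 on every arm, and X was lowest in both.

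**Figure D3:**
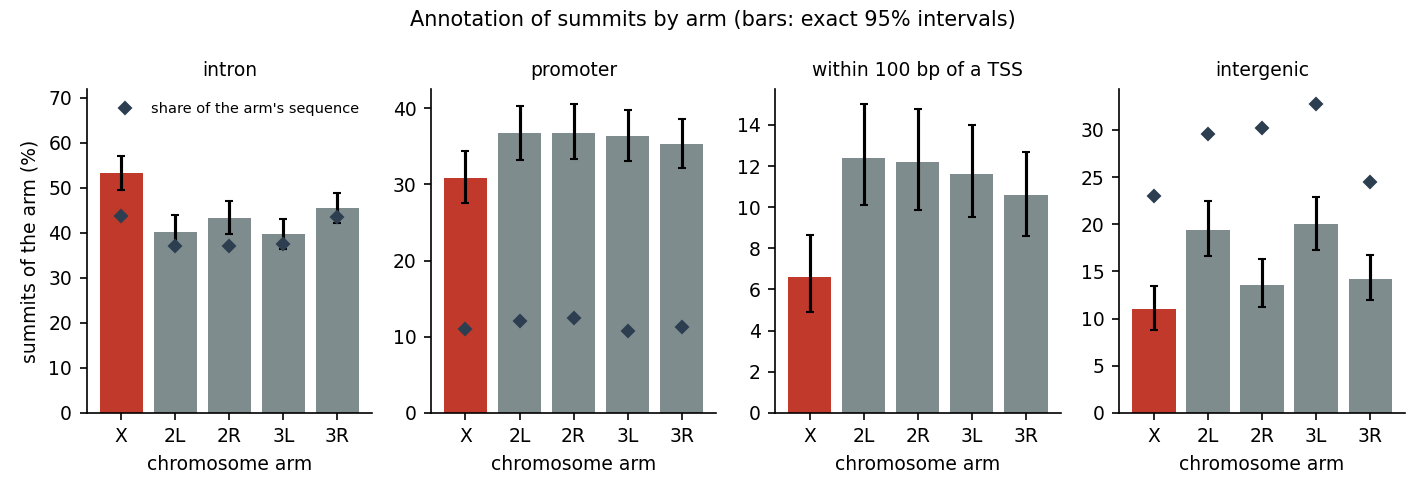
Share of each arm's summits (percent) in introns, at promoters, within 100 bp of a TSS and in intergenic sequence, for X (red, left) and the 4 large autosomal arms (grey), with exact 95% intervals. Diamonds give the class's share of the arm's sequence, which was not measured for the panel within 100 bp of a TSS. X stands highest for introns at 53.3% and lowest for the other 3 panels, at 30.9, 6.59 and 11%.

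The strongest X peak lay in an intron of Sp1 (FBgn0020378), which encodes a zinc finger transcription factor of leg development, at chrX:9744603-9745360. Its signal was 14960.7 in the optimal list, rank 2 of all peaks, and it was rank 2 in replicate 1 and rank 4 in replicate 2. The next X peak lay in an intron of Hk (FBgn0263220), which encodes a subunit of the Shaker potassium channel, with a signal of 9952.7. It ranked 3 in replicate 1 and 28 in replicate 2. A peak of 9785.3 lay 3 bp upstream of the TSS of elav (FBgn0260400), whose product binds RNA in neurons, inside the annotated gene arg, and ranked 11 in replicate 1 and 13 in replicate 2. At 1769 bp it was the widest X peak. The first of these stands in the window of ATCC repeats shown above, and the other 2 have no 4-base repeat within 50 bp of the summit.

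The 20 strongest X peaks all reached a signal of at least 1821.6, and 15 of them were intronic. A peak of 4565.1 lay in an intron of Drak, which encodes a protein kinase, with CG1572 (FBgn0030309) as the gene of the nearest TSS, 29189 bp away. An intron of CG8034 (FBgn0031011) held peaks of 4103.0 and 2039.4. An intron of stx held one of 3589.3, nearest to ras (FBgn0003204), the inosine monophosphate dehydrogenase gene. The peak in lz (FBgn0002576), a Runx transcription factor gene of blood and eye, had 2978.0. Further intronic peaks lay in CG43658 (2624.8), drd (2390.5), CG12535 (2290.6, nearest to CG14269), rut, the adenylyl cyclase gene of olfactory learning (2250.9), hiw, a ubiquitin ligase gene of synapse growth (2193.7, nearest to be), CG4678 (2018.8, nearest to CG9676), CG3655 (1928.1) and disco-r, a zinc finger gene (1868.9). The only intergenic one lay 9976 bp upstream of the homeobox gene OdsH (2487.2). Beside elav, promoter peaks lay at the nucleotide sugar transporter gene Ugalt (2647.5, 28 bp upstream), CG14441 (1946.4, 77 bp upstream) and ph-p (1821.6, 472 bp upstream). All 20 were found in both replicates, at rank 174 or better in replicate 1 and 222 or better in replicate 2, and 7 of them lay more than 10000 bp from a TSS.

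Repeats of a 4-base unit lay at X summits and became rarer with rank. Within 100 bp of the summit 104 of 728 X peaks had one, 14.3% (11.8 to 17.0%), beside 11.8, 10.9, 11.1 and 12.2% on 2L, 2R, 3L and 3R. In 2 flanks reaching 50 bp to either side of points 500 bp away it was 34 of 728, 4.67% (3.26 to 6.47%). Windows of 201 bp, the length of the summit window, laid end to end held one in 3.79% on X and 2.58 to 2.66% on the autosomal arms, so repeats were commoner over X as a whole as well. By rank, the X share was 64.3% (9 of 14; 35.1 to 87.2%) in the 100 strongest, 23.8% in ranks 101 to 500, 18.3% in ranks 501 to 1000, 12.3% in ranks 1001 to 2000 and 10.5% (7.46 to 14.2%) in ranks 2001 to 3921. On the 4 large autosomal arms the same slices gave 60.5, 23.7, 13.7, 9.84 and 6.61%. X peaks with a repeat had a median signal of 285.7, and those without one 216.5. On the autosomal arms these medians were 377.2 and 207.2, so the step in signal was smaller on X. Distal X peaks had a repeat in 17.9% and promoter ones in 6.22%.

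The units were not alike. ACTG repeats lay at 29 X summits, ATCC at 23, AATG at 18 and AATC at 13, each with 1 in the flanks. ACAT, at 9 summits and 8 flanks, and AAAT, at 5 and 5, were about as frequent in the flanks. ATCC was at 3.16% of X summits (2.01 to 4.70%), beside 1.44 to 2.24% on the autosomal arms, while ACTG, at 3.98%, lay inside the autosomal span of 3.08 to 4.33%. The definition of a repeat and these 6 units were chosen after seeing the data.

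**Figure D4:**
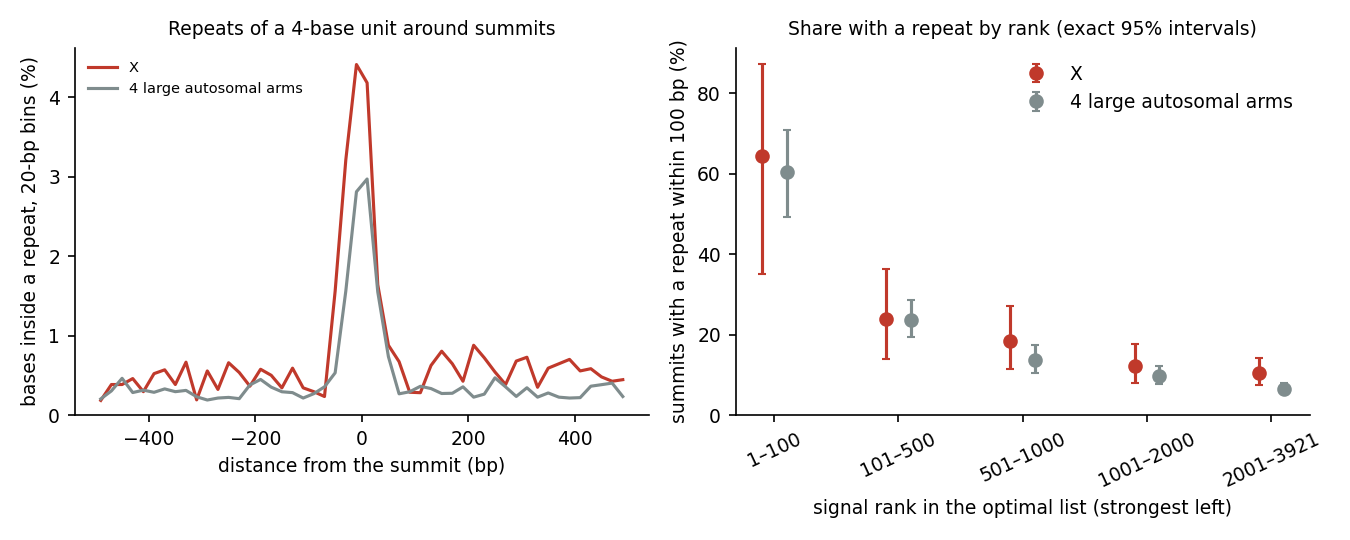
Left, percent of bases inside a 4-base repeat in 20-bp bins by distance from the summit; right, percent of summits with such a repeat within 100 bp by signal rank, with exact 95% intervals; X in red and the 4 large autosomal arms in grey. The repeats gather at the summit, where the highest bin reaches 4.41% on X, just left of it, and 2.97% on the autosomal arms, just right of it. Among the 100 strongest peaks the share with a repeat is 64.3% on X and 60.5% on the autosomal arms.

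The word GCACAGTG, or CACTGTGC on the other strand, lay within 100 bp of 40 X summits, 5.49% (3.95 to 7.41%), and of 2.85, 2.80, 2.87 and 2.67% of the summits of 2L, 2R, 3L and 3R. In the X flanks it was 1.24%, and in windows of the same length laid along the arms 0.920% on X and 0.719 to 0.793% on the autosomal arms. It was at 6.34% of the strongest X summits of replicate 1 and at 5.22% of those of replicate 2, beside 2.51 to 3.57% and 2.01 to 3.16% on the autosomal arms. Since it was picked on X, its share there is a description. Of its 40 X peaks 2 also held a 4-base repeat. Their median signal was 214.0, and the strongest, at ph-p, ranked 221. Promoters held 15 of them, introns 19 and other classes 6. The word was at 6.67% of promoter and 4.97% of distal X summits, beside 3.03 and 2.66% on the 4 large autosomal arms.

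Other 8-base repeats and sites of known factors, 10 motifs in all, were searched within 100 bp of the summit on either strand. The Su(H) site GTGGGAA was at 2.88% of X summits, 2.61% of their flanks and 2.48% of windows along X. The Zelda site CAGGTAG was at 0.962% of summits, 0.962% of flanks and 0.998% of windows. The site of GATA factors, AGATAAG, was at 2.88% (1.79 to 4.38%), 1.65% and 1.96% in the same order. It was more frequent at X summits than beside them, but the interval includes the share of windows. On the autosomal arms 3.26 to 4.07% of summits held it. An E-box of the form CAGCTG was at 6.18% of summits, 7.83% of flanks and 8.48% of windows, and the TCF site CTTTGAA at 4.40, 3.16 and 3.88%. The ATATATAT repeat was at 4.53% of X summits, 4.81% of the flanks and 4.79% of X windows. The GAGAGAGA repeat was at 1.92% of X summits and 3.71% of their flanks, and the CACACACA repeat at 4.53% and 8.65%, so both were rarer at X summits than beside them. Along X, 1.53% and 5.76% of windows hold them, inside the summit intervals of 1.06 to 3.21% and 3.14 to 6.31%. TATCGATA, the element bound by DREF at promoters of cell proliferation genes, was at 1.51% of X summits, 0.824% of the flanks and 0.704% of X windows. GGTCACACT, a core promoter element, was at 1 X summit, 0.137% (0.00348 to 0.763%), and at 4 flanks, 0.549%. On the 4 large autosomal arms it was at 31 summits, 0.973% (0.662 to 1.38%), and 6 flanks, 0.188%. Of X windows 0.248% hold it, and of autosomal ones 0.168 to 0.211%. Fewer X summits lay within 100 bp of a TSS, 6.59% beside 11.6% on those arms, and whether that bears on this element was not tested. A missing match says only that these letters are not in the window.

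X summits were spread along the arm from 276342 to 22491325, with 2 to 55 in each full window of 1 Mb and a median of 31.0. The fullest windows were those from 7 to 8 Mb with 55, 3 to 4 Mb with 53 and 6 to 7 Mb with 52. The last of these had 42.3% of its summits at promoters and 110 protein-coding genes, while the window from 3 to 4 Mb had 9.43% and 55 genes. Summit and gene counts of the 23 windows had a Pearson r of 0.37 and a Spearman rho of 0.43, given as a description. On 2R, 3L and 3R r was 0.74 to 0.85 and rho 0.53 to 0.65, and on 2L they were 0.22 and 0.25. X and 2L had 1 window each with fewer than 10 summits, and the other arms 4 to 6. The share of X summits with a neighbour within 5000 bp was 52.5% (48.8 to 56.2%), inside the autosomal span of 47.7 to 52.7%.

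The longest run of summits with gaps of at most 5000 bp lay on X, but runs held no larger share of summits there. Runs of 3 or more held 26.9% of X summits (23.7 to 30.3%), inside the autosomal span of 21.4 to 28.8%. X had 49 runs of 3 or more and 12 of 5 or more, beside 51 to 58 and 8 to 11 on the autosomal arms. The longest held 11 summits, beside 8 or 9 in the longest autosomal runs. It spanned chrX:6849653-6867950 over CG14434 (FBgn0029915) and CG43736, with signals of 129.3 to 728.7, of which 11 were found in replicate 1 and 10 in replicate 2. The next run, of 9, lay within CHES-1-like (FBgn0029504), a forkhead transcription factor gene, with signals of 133.8 to 626.3. Raf (FBgn0003079), the kinase above MEK in the MAP kinase cascade, had a run of 8, with signals of 126.0 to 699.7. That run began outside the Raf gene body, at a summit nearest to CG2865. Moe (FBgn0011661), which encodes the membrane-cytoskeleton linker Moesin, had a run of 6, with signals of 129.2 to 477.1. A run of 5 covered ph-p and D2hgdh, with signals of 128.4 to 1821.6, and further runs of 5 lay at Tlk, Act5C, CG1677, CBP, fend, Ptpmeg2 and CG4004.

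By whole gene bodies, the non-coding gene lncRNA:CR44357 held 19 summits and the overlapping CG1677 (FBgn0029941) 18, and since CG1677 lies inside it these count for both. kirre (FBgn0028369), an adhesion gene of myoblast fusion, also held 18, spread over 394.1 kb, or 4.57 per 100 kb. CHES-1-like had 9 in 27 kb, or 33.3 per 100 kb, CG14434 had 8 in 15.3 kb, or 52.3 per 100 kb, and Moe 8 in 25.3 kb, or 31.6 per 100 kb. The median signal of the peaks was 343.7 in CHES-1-like and 165.8 in kirre, beside 223.6 for all X peaks.

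Of the 2196 protein-coding genes on X, 249 had a summit within 500 bp of a TSS and are called bound, 11.3% (interval up to 12.7%), beside 12.5% of 11669 on the 4 large autosomal arms (11.4 to 13.8% by arm). A summit inside the gene body was found in 291 X genes, 13.3% (11.9 to 14.7%), beside 10.3% on those arms (9.97 to 10.7% by arm). X genes were longer, with a median of 2521.0 bp, beside 1986.0 to 2130.0 bp, and 3.14% of them exceeded 50 kb, beside 1.84 to 2.30%. Whether that length carries the higher share of gene bodies was not tested.

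Among 9 genes of dosage compensation and sex determination, Sxl (FBgn0264270), the switch gene of female development, was bound. Its signal was 292.1, at rank 1362, with the summit 442 bp downstream of a TSS, and it ranked 1020 in replicate 1 and 1977 in replicate 2. The roX RNA genes were not bound. The nearest summit lay 5949 bp upstream of the TSS of lncRNA:roX1, with a signal of 211.8, and 2319 bp upstream of that of lncRNA:roX2, with 136.2. The nearest summit to mof, which encodes the histone acetyltransferase of the complex, was 16987 bp away. The X-linked signal elements sisA, sc, run and upd1 had their nearest summits 4098, 33742, 33971 and 14027 bp from a TSS, and snf, a splicing factor gene, 17896 bp. The count of 1 in 9, 11.1% (0.281 to 48.2%), stands beside the 11.3% of all X genes.

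Among all X protein-coding genes 11.3% were bound. Of 13 cytosolic ribosomal protein genes on X 8 were bound, 61.5% (31.6 to 86.1%), beside 42 of 71 on the 4 large autosomal arms, 59.2%. That count rested on replicate 1. By the strongest peaks of replicate 1 it was 11 of 13, 84.6% (54.6 to 98.1%), beside 45 of 71, 63.4%, on those arms. By those of replicate 2 it was 2 of 13, 15.4% (1.92 to 45.4%), beside 35 of 71, 49.3%. Among all X genes the bound share was 13.3% by replicate 1 and 8.65% by replicate 2. RpL17 and RpS10b were the ribosomal protein genes that remained by the strongest peaks of replicate 2. The signals were low to moderate, with 329.5 at RpS10b (FBgn0285947), 270.3 at RpS28b, 268.7 at RpL17, 185.9 at RpS19a, 176.6 at RpL22, 140.4 at RpS15Aa, 138.6 at RpL7A and 128.8 at RpS6. All 8 summits lay within 71 bp of a TSS. RpS10b ranked 599 in replicate 1 and 3836 in replicate 2, RpS15Aa 1810 and 12009. All but RpL17 ranked stronger in replicate 1. The genes of the mitochondrial ribosome gave none of 11 (upper limit 28.5%), beside 13 of 62 on the 4 large autosomal arms, 21.0%. Odorant and gustatory receptor genes gave none of 14 (upper limit 23.2%), beside 1 of 105, and chorion and yolk protein genes none of 8 (upper limit 36.9%). The intervals of these lists without a bound gene all include the 11.3% of all X genes.

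Of 26 patterning and other transcription factor genes 1 was bound, disco-r, with a signal of 654.9 432 bp downstream of a TSS, 3.85% (0.0973 to 19.6%). That interval includes the 11.3% of all X genes bound. Summits inside the gene body were found in 13.3% of all X genes and in 11 of the 26, 42.3%. These were Sp1 with 4, disco-r, ovo and ct with 3 each, Lim1 with 2, and br, unc-4, lz, Vsx1, bi and mamo with 1 each. Their strongest signals ran from 144.8 in Lim1 to 14960.7 in Sp1, with 1662.2 in the retinal homeobox gene Vsx1 and 1513.4 in the T-box gene bi. These genes are long, with a median of 18799.5 bp, and their bodies held 29.2 summits per Mb, beside 30.9 for X as a whole. By the strongest peaks of replicate 2 btd was bound as well, and by those of replicate 1 disco-r alone.

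In the signalling list 3 of 17 genes were bound, 17.6% (3.8 to 43.4%), beside 11.3% of all X genes, an interval that includes that share. They were sgg, the GSK-3 kinase gene of Wnt signalling (563.2), csw, a tyrosine phosphatase gene (294.3), and Pvf1, a growth factor gene (235.0). The bodies of 5 held summits, 29.4%, beside 13.3% of all X genes, among them Raf with 8, sog, a BMP antagonist gene, with 7 and N, the Notch receptor gene, with 4. The strongest reached 1568.2 in N and 1298.4 in sog, and the bodies of the list held 83.9 summits per Mb, beside 30.9 for X as a whole. Most of these body summits lay in Raf and sog. The genes of the list are longer than X genes at large, with a median of 7458.0 bp, beside 2521.0 bp.

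Of 14 cell adhesion and recognition genes sdk (357.6), dpr14 (264.8) and Ten-a (168.2) were bound, 21.4% (4.66 to 50.8%). A summit in the body was found in 13.3% of all X genes and in 6 of these 14, 42.9%. These genes are also long, with a median of 43171.0 bp, and their bodies held 23.4 summits per Mb, fewer than X as a whole. Summits lay in kirre with 18, Ten-a with 5, Nrg and rst with 3 each, and Fas2 and DIP-alpha with 1 each, and rst lies inside kirre and shares its summits. Of 10 ion channel and gap junction genes Sh, the Shaker channel gene (230.7), and Inx7, an innexin gene (132.0), were bound, 20% (2.52 to 55.6%), and Sh alone by the strongest peaks of replicate 2. Of 14 chromatin genes ph-p, a Polycomb group gene (1821.6), and Bap60, a subunit gene of the Brahma complex (186.2), were bound, 14.3% (1.78 to 42.8%). The intervals of these 3 lists all include the 11.3% of all X genes. The ph-p paralogue ph-d had its nearest summit 802 bp upstream, with a signal of 770.8.

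**Figure D5:**
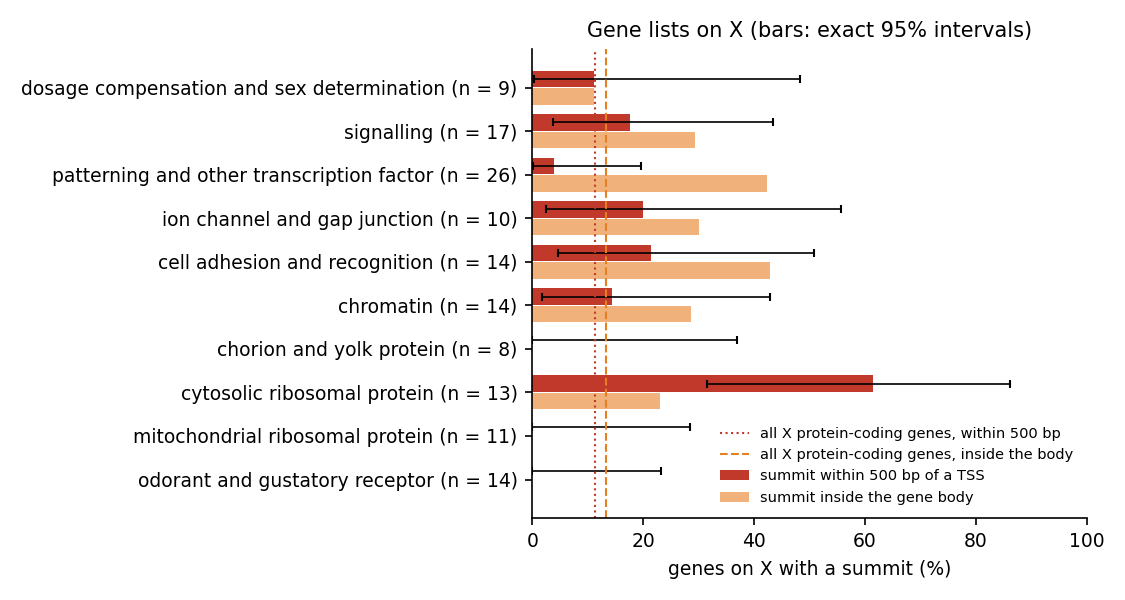
Percent of the X members of each gene list with a summit within 500 bp of a TSS (red, with exact 95% intervals) or inside the gene body (orange), with lines at the shares of all X protein-coding genes, 11.3% and 13.3%. Cytosolic ribosomal protein genes reach 61.5% by the TSS rule, and the cell adhesion and transcription factor lists, both of long genes, 42.9% and 42.3% by the body rule. Ribosomal protein genes reach 15.4% by the strongest peaks of replicate 2, beside 8.65% of all X genes (not plotted).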

How the data were processed

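The measurements are ChIP-seq peak lists on dm6 for 2 biological replicates of 1 group. Per the labels and the notes deposited with each sample, the authors called peaks in each replicate and in both together against a control alignment, 30000 per deposited list, and derived from these the optimal list by the irreproducible discovery rate. The deposited signal is the peak caller's value per peak, and the other deposited column used is the summit offset in bases. Which aligner, caller and cutoffs were used is not stated in the labels or notes, and depth per sample is unknown.

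Summits were annotated with Ensembl release 115, leaving out transposable elements and pseudogenes, and sequences were read from the Release 6 reference genome, whose coordinates match dm6. Classes were taken in the order promoter (within 500 bp of a TSS of a protein-coding gene), then exons by kind (5′ UTR, coding, 3′ UTR, other), intron and intergenic. Their share of an arm was measured on a grid of 50 bp. The functions were tested on simulated data. Intervals came from SciPy 1.17.1, tables from pandas 2.3.3 and NumPy 2.4.6 under Python 3.11.15, and plots from Matplotlib 3.10.9. The named genes are those nearest the 20 strongest X peaks, the 6 with most summits in their bodies, those of the 5 runs of most summits, up to 5 bound members of each of 10 lists and all members of the dosage compensation list. The fifth and the sixth gene by bodies were taken from 6 tied at 8 summits, and the fifth run from 8 tied at 5. Other genes were named after their values were seen. Members and lists were chosen with earlier results of these data known. The lists named e(y)1 and Chrac-14, which were not matched. Alternatives were each replicate alone, a stronger and a longer list, shared intervals counted once, and other windows.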

Additional observations from a re-analysis of the deposited data

How the results depend on the processing

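Without one replicate, the X share of summits was 17.1 to 18.9%, the X over autosomal density 0.959 to 1.08 beside 1.06 in the optimal list, the promoter share 26.1 to 34.4%, the median signal ratio 1.04 to 1.06, the share with a neighbour within 5000 bp 48.4 to 49.3% and the share of X genes bound 8.65 to 13.3%. The density ratio was below 1 without replicate 1, at 0.959, and 0.978 with 7842 pooled peaks. In the stronger 1960 peaks the X over autosomal median signal was 0.942, a reversal of the 1.04 in the optimal list, the neighbour share 35.0% and genes bound 5.97%. With 7842 pooled peaks these were 1.07, 66.7% and 18.3%. The signal ratio was 1.00 at promoters and 1.06 at distal summits, and the cause of these changes was not tested. The promoter share was 18.3% with 250 bp, 41.3% with 1000 bp and 20.3% with only the 5′-most TSS, and genes bound 7.15, 14.5 and 8.42%. Within 2000 bp 31.9% had a neighbour. X peaks matched in both replicates were 96.7% with any peak and 67.7% with at least 50% of the peak covered. Counting shared intervals once kept the shares of summits, promoters, neighbours and genes bound inside their intervals, with a density ratio of 1.05 and a signal ratio of 1.05. For repeats, alternatives chosen after seeing the data gave 8.38% with at least 16 bases and 12.4% within 50 bp. Among alternatives chosen after seeing the data, X ribosomal protein genes bound ran from 15.4% without replicate 1 to 84.6% without replicate 2, and 23.1% in the stronger 1960 peaks. No paired analysis was possible because there is only 1 group. No list gives read counts, so what depth limits cannot be given.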
